A study of Mus musculus with 4 samples.

Results

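The cells described are the Cd4-positive, C1q-high macrophages of the mouse colon, 592 of the 5420 single cells deposited from 4 mice. They were chosen by their own transcript counts. For each cell, C was the number of unique molecular identifiers (UMIs, each standing for 1 captured mRNA molecule) of C1qa, C1qb and C1qc per 10000 UMIs of the cell. A cell was taken when C was at least 120, when it held 0 Ly6c2 UMIs, at most 1 AA467197 UMI, under 2 UMIs of Lyve1 and Cd163 together, and at least 1 Cd4 UMI. Folr2, the other gene named in that sum, was not analysed here. The 1915 cells that met every condition except the Cd4 UMI are called Cd4-negative C1q-high cells, and both classes together are called Lyve1-low C1q-high cells. The members numbered 183 and 373 in chow replicates 9 and 11, and 19 and 17 in HFD replicates 1 and 3. All animals were wild-type male C57/Bl6N mice of 6 to 7 weeks, fed chow or a coconut-based high-fat diet (HFD, 60% fat) for 1 week, with 2 mice per diet and 1 droplet library per mouse. Cells were sorted from the lamina propria, the connective tissue beneath the gut epithelium, as live CD45+ Lin- CD11b+ CD24- cells that were Ly6C+ or CD64+, and the study's design asks how the diet alters colonic macrophages and monocytes.

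Macrophages of the colonic lamina propria are largely renewed from blood monocytes, which enter through the chemokine receptor CCR2, lose Ly6C, and gain MHC class II, the fractalkine receptor CX3CR1 and F4/80 (encoded by Adgre1) as they mature. CD4 is best known as the co-receptor of helper T cells, where it binds MHC class II and carries the kinase Lck. Mature gut macrophages of the mouse can also carry CD4, and together with the phosphatidylserine receptor TIM-4 (Timd4) it has been used to mark those that turn over slowly and depend less on monocyte supply. C1q, the recognition molecule of the classical complement pathway, is built from the products of C1qa, C1qb and C1qc and is made in quantity by resident macrophages.

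The mouse Cd4 gene lies on the minus strand of chromosome 6 (chr6:124864692-124888221, GRCm38). Among the 592 members, 348 (58.8%) held a single Cd4 UMI, 148 (25.0%) held 2 and 96 (16.2%) held 3 or more, so most cells passed the rule on 1 molecule. Cd4 in the summed members stood at 322, 341, 380 and 353 UMIs per 1000000 UMIs of the summed cells (CPM) in chow 9, chow 11, HFD 1 and HFD 3, the order used for all sets of 4 values below. C1qa stood at 7146, 7991, 9852 and 7721 CPM. These levels follow from the rule and are given as a description. Cells with a Cd4 UMI just inside the C limit (C of 120 to 140, 25 cells) had 370 CPM of Cd4, 542 of Cx3cr1, 577 of Adgre1 and 94.7 of Ccr2. Those just outside (C of 100 to 120, 19 cells) had 399, 548, 582 and 49.8 CPM. Cx3cr1 and Adgre1 were thus close on both sides of the limit. All cells of both groups were chosen to hold a Cd4 UMI, so their Cd4 levels follow from that choice. Ccr2 was higher just inside the limit, a difference between 25 and 19 cells that was not tested.

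The other markers of the label were present. Cx3cr1 stood at 555, 582, 590 and 365 CPM in the members, against 487, 516, 325 and 240 CPM in Cd4-negative C1q-high cells. Adgre1 stood at 725, 692, 708 and 353 CPM in the members, against 699, 724, 432 and 320 CPM in the Cd4-negative class. Monocytes, taken as cells with at least 2 Ly6c2 UMIs and C under 20, had less of both in all 4 mice, with Cx3cr1 at 96.8, 211, 54.4 and 44.4 CPM and Adgre1 at 194, 285, 189 and 174 CPM. Csf1r, the receptor for the macrophage growth factor CSF1, stood at 926, 968, 721 and 730 CPM in the members.

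Since T cells carry CD4, their defining genes were read in the same cells. Any of the 6 measured genes of the CD3 complex and T cell receptor had a UMI in 8 of 592 members (1.35%) and in 31 of 1915 Cd4-negative cells (1.62%). Their summed level was 3.35 CPM in the members against 8.56 CPM in the Cd4-negative cells. Trbc1, Cd247, Lat and Cd8b1 were at 0 in the members, and Lck and Cd3e each had 1 UMI. Over the whole T cell list, 15 of the 19 measured genes had a UMI in members, with summed levels of 98.3, 85.1, 39.3 and 35.3 CPM against 82.9, 105, 60.1 and 134 CPM in Cd4-negative cells, so neither class was higher in all mice. Plasmacytoid dendritic cell genes, several of which macrophages also express, were higher in the members of all 4 mice, at 421, 532, 721 and 412 CPM against 347, 469, 341 and 337 CPM, and their part in the results below was not tested.

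The members of the chow mice were deeper than their neighbours. The median UMI count per cell was 5228 in the members and 4069 in Cd4-negative cells of chow 9, 4570 and 3795 in chow 11, 3539 and 3614 in HFD 1, and 4829 and 4341 in HFD 3. A deeper cell has more chances to show a Cd4 UMI, so shares are also given after each cell was thinned to 2000 UMIs, which left out 982 of the 5420 cells as shallower. Scrublet marked 6 members as doublets, 4 in chow 9 and 2 in chow 11. Of the members, 5 carried a cell barcode that also occurs in another library. Median C was alike in both classes, at 198 and 199 in chow 9, 206 and 203 in chow 11, 231 and 207 in HFD 1, and 213 and 195 in HFD 3.

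The share of members was compared between diets to ask how many C1q-high cells showed Cd4. Members made up 29.5% (25.9 to 33.2) of the Lyve1-low C1q-high cells in chow 9, 24.8% (22.6 to 27.1) in chow 11, 10.1% (6.20 to 15.3) in HFD 1 and 8.76% (5.19 to 13.7) in HFD 3, with exact Clopper-Pearson 95% intervals that cover counting error only. The means were 27.1% ± 3.30 on chow and 9.44% ± 0.95 on HFD (SD, n = 2 mice each), and the diets did not overlap. With each cell thinned and the classes chosen again by the same limits, which left 594, 1339, 186 and 221 Lyve1-low C1q-high cells in place of 621, 1504, 188 and 194, the shares were 17.9%, 14.3%, 6.45% and 6.79%. With at least 2 Cd4 UMIs asked of a cell they were 12.4%, 10.1%, 3.72% and 4.12%. The exact two-sided permutation test over mice gave p = 0.333, the smallest that 2 against 2 allows.

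**Figure D1:**
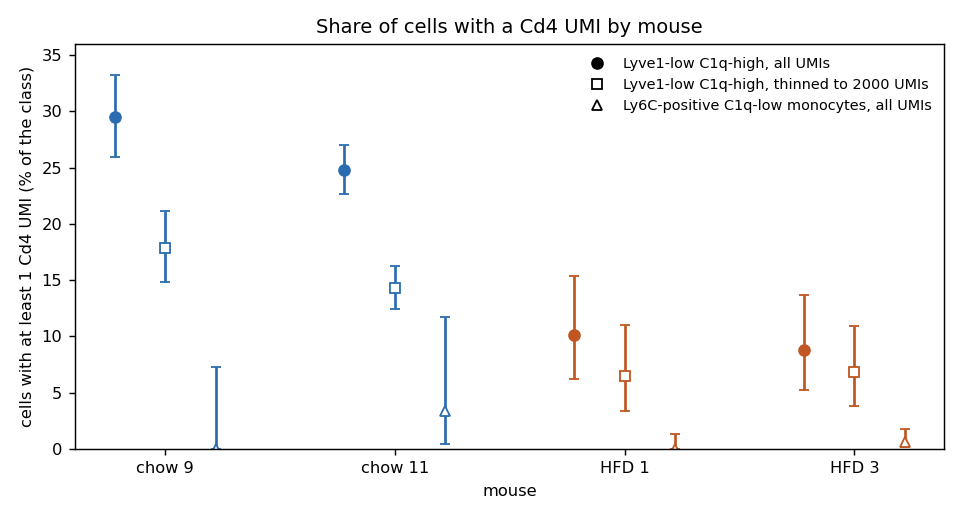
Share of cells with a Cd4 UMI (y axis, percent) in each mouse (x axis); filled circles are Lyve1-low C1q-high cells with all UMIs, open squares the class chosen again after each cell was thinned to 2000 UMIs, triangles Ly6C-positive monocytes, and bars 95% Clopper-Pearson intervals. The chow mice stand at 29.5% and 24.8% and the HFD mice at 10.1% and 8.76%, with monocytes at 3.39% or less.

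Free RNA in a droplet can give a UMI to a cell that does not express the gene. The size of that background was not measured here, and monocytes are given for comparison. A Cd4 UMI was found in 0 of 49, 2 of 59, 0 of 287 and 3 of 494 monocytes, or 5 of 889 in all (0.562%), at median depths of 3239, 2965, 4419 and 3180 UMIs. The share in C1q-high cells of each mouse was above the monocyte share of the same mouse. Among cells outside the C1q-high classes the share was 7.49%, 9.47%, 0.775% and 0.962%. Among thinned cells that met the rule's limits on Ly6c2, AA467197, Lyve1 and Cd163 at any C, the share on chow was 1.22% at C under 20, 0% at 20 to 60, 7.84% at 60 to 120, 15.5% at 120 to 180, 16.1% at 180 to 240 and 14.0% above that. On HFD it was 0% in each bin of C under 120 and then 5.84%, 5.81% and 8.70%. Above the limit of 120, more C1q did not go with a steadily larger share of Cd4-bearing cells on chow.

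Because far fewer cells of the HFD mice were C1q-high, members were rarer still as a share of all sorted cells. They made up 20.2%, 18.6%, 1.97% and 1.10% of all cells, a mean of 19.4% ± 1.14 on chow and 1.53% ± 0.614 on HFD (SD, n = 2 mice each; exact permutation p = 0.333). The Lyve1-low C1q-high cells as a whole made up 68.7%, 75.1%, 19.5% and 12.5%. In a sorted sample a smaller share can come from fewer of these cells or from more of the others, and these cannot be told apart.

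The Cd4 level was also read in all Lyve1-low C1q-high cells summed per mouse, so that no cell was chosen by Cd4. It counts the same Cd4 UMIs as the shares and is given as a description. Cd4 stood at 110, 99.1, 40.0 and 33.7 CPM, from 318, 626, 29 and 30 UMIs, with both HFD mice below both chow mice. The fitted log2 difference, HFD minus chow, was -1.60 (SE 0.230). Within the members themselves the mean number of Cd4 UMIs per cell was 1.74, 1.68, 1.53 and 1.77. Among the few C1q-high cells with at least 2 UMIs of Lyve1 and Cd163, which the rule leaves out, 5 of 16, 10 of 86, 0 of 4 and 0 of 2 held a Cd4 UMI, too few for a test of genes.

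The main comparison set the members against Cd4-negative C1q-high cells of the same mice. On chow, members had less of the monocyte genes Ccr2, S100a6 and S100a10, less of Alox5ap, and more of Npl, Vcam1, H2-M2, Dnase1l3, Clec4n and Apoe. With cells of matched depth the calls of Vcam1, H2-M2 and Clec4n were kept and those of Npl, Dnase1l3 and Apoe were lost. The largest fall was 1.77 on the log2 scale and the largest rise 0.77. Some falls were smaller than that rise, such as Cst3 at -0.24. Counts were summed per mouse and class and tested with the mouse as a term; sums under 20 cells were not used, so this fit holds the 2 chow mice. It called 27 of 5050 genes at a false discovery rate of 1% (0.535%), 10 higher and 17 lower in the members, with the genes of the rule left out of the counts. The p-values rest on 2 animals, and in these sums a change in the share of expressing cells and a change in RNA per cell cannot be told apart. Without the mouse term the fit called 0 genes (440 had an unadjusted p under 0.05 with it). Without cells marked as doublets it called 6, among them Dnase1l3, Clec12a, Ccr2, S100a6 and Alox5ap, with log2 fold changes of 0.49, -1.78, -1.45, -1.28 and -1.08. That fit held 179 and 371 members in place of 183 and 373, and 436 and 1129 Cd4-negative cells in place of 438 and 1131. The fold changes of named genes that lost their call moved little, such as Npl at 0.76, Vcam1 at 0.56 and H2-M2 at 0.54.

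Ccr2, the receptor that brings monocytes into tissue, had the lowest adjusted p of the 27 genes. It stood at 65.9 CPM in members and 253 CPM in Cd4-negative cells of chow 9, and at 129 and 306 CPM in chow 11. In the HFD mice, which the test did not use, it stood at 91.7 against 393 CPM and 188 against 380 CPM, so members were lower in all 4 mice. The log2 fold change on chow was -1.46 (SE 0.12, adjusted p = 2.21e-07). At equal depth of 2000 UMIs per cell, a Ccr2 UMI was seen in 10.4% of members and 21.1% of Cd4-negative cells of chow 9, 13.6% and 29.9% in chow 11, 16.7% and 37.9% in HFD 1, and 33.3% and 42.7% in HFD 3. The member values of the HFD mice rest on 2 of 12 and 5 of 15 cells.

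S100a6, a small calcium-binding protein abundant in monocytes, stood at 62.8 against 157 CPM in chow 9, 61.1 against 139 in chow 11, 105 against 459 in HFD 1 and 118 against 340 in HFD 3. Its log2 fold change on chow was -1.23 (SE 0.132, adjusted p = 8.52e-06), and the members were lower in every mouse. S100a10, the partner of annexin A2, fell by 0.93 on the log2 scale, and Anxa2 itself by 0.76; in HFD 3 S100a10 was not lower (177 against 150 CPM). Alox5ap, needed to start leukotriene synthesis from arachidonic acid, stood at 60.8 against 130 CPM, 87.8 against 182, 52.4 against 253 and 118 against 215, with a log2 fold change of -1.06 (adjusted p = 1.88e-05). Tmsb10, a thymosin that binds actin monomers, stood at 70.9 against 139 CPM, 56.7 against 113, 118 against 327 and 94.2 against 383. Its log2 fold change was -0.97 (SE 0.137, adjusted p = 0.000211). Ccr2 passed in 13 of the 14 alternatives that could change its value, and S100a6 and Alox5ap in 14 of 15 each, the exception being the fit without the mouse term. The rises passed in fewer, H2-M2 and Clec4n in 12 of 15 each, Dnase1l3 in 11, and Npl, Vcam1 and Apoe in 9 each. Vcam1 was lost under DESeq2, among others.

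The other falls are given gene by gene. Clec12a, an inhibitory C-type lectin receptor of myeloid cells, had the largest fall at -1.77 (SE 0.203, adjusted p = 1.85e-05), from 87.6 to 20.3 CPM in chow 9 and from 79.2 to 26.2 in chow 11. In HFD 3 it went the other way, with 259 CPM in the members and 162 in Cd4-negative cells. Retnla, the secreted resistin-like molecule alpha, was low in all sums, at 8.11 against 36.4 CPM in chow 9 and 31.1 against 78.3 in chow 11, and its log2 fold change was -1.50 (adjusted p = 0.000679). A single Cd4-negative cell held 48 of 69 Retnla UMIs in chow 9 (69.6%) and another 186 of 351 in chow 11 (53.0%). With those cells left out the Cd4-negative level was 11.1 and 36.8 CPM, near that of the members, and at 2000 UMIs per cell a Retnla UMI was seen in 2.83% of members against 3.28% in chow 9 and 6.28% against 5.92% in chow 11. Lyz1 fell by 0.98 and stood at 99.3 against 167 CPM and 90.0 against 200; its sequence is close to that of Lyz2, so its reads may have been divided between the 2 genes. Clec4b1, another C-type lectin, fell by 1.04 and Tnip3, an inhibitor of NF-kappaB signalling, by 0.90. The chemokine Ccl9 fell by 0.80, the Toll-like receptor Tlr2 by 0.67 and the interferon-induced Ifitm3 by 0.50.

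Among genes that were higher in the members, Npl, the lyase that splits sialic acid, had the largest rise at 0.77 (SE 0.0970, adjusted p = 4.69e-05). It stood at 263 against 154 CPM in chow 9, 185 against 111 in chow 11, 157 against 89.4 in HFD 1 and 153 against 107 in HFD 3, so it was higher in every mouse. Vcam1, an adhesion molecule that binds integrins on leukocytes, rose by 0.58 on chow, from 249 to 352 CPM and from 218 to 335. It was lower in the members of HFD 1 (183 against 258 CPM) and higher in those of HFD 3 (377 against 118). A single member held 7 of 14 Vcam1 UMIs in HFD 1. Another held 18 of 32 in HFD 3, where the members stood at 175 CPM without it. H2-M2, a non-classical MHC class I gene, rose by 0.55 (SE 0.0685, adjusted p = 4.58e-05), standing at 820 against 642 CPM in chow 9 and 1106 against 690 in chow 11. It stood at 1821 against 470 CPM in HFD 1 and 506 against 286 in HFD 3, where a single member held 31 of 43 UMIs, and with that cell left out the members of HFD 3 were at 161 CPM, below the Cd4-negative cells.

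Dnase1l3, a secreted nuclease that digests DNA in chromatin, stood at 3257 against 2346 CPM in chow 9, 3038 against 2119 in chow 11, 4153 against 2758 in HFD 1 and 5226 against 4722 in HFD 3. Its log2 fold change on chow was 0.51 (SE 0.0460, adjusted p = 7.70e-07). Members were higher in all 4 mice, though in HFD 3 a single member held 83 of 444 UMIs, and without it the members stood at 4419 CPM, below the Cd4-negative cells. Clec4n, which encodes the fungal receptor dectin-2, rose by 0.50 (adjusted p = 9.16e-05) and was also higher in all 4 mice, at 904 against 718 CPM in HFD 1, where a single member held 20 of 69 UMIs and the members stood at 697 CPM without it. The Cd4-negative cells of HFD 1 stood at 637 CPM without their own top cell. Apoe, the lipid-carrying apolipoprotein E, was among the most abundant transcripts, at 73832 against 60312 CPM in chow 9, 67839 against 58811 in chow 11, 55944 against 35757 in HFD 1 and 43701 against 27100 in HFD 3. Its rise on chow was 0.26 (SE 0.0310, adjusted p = 2.68e-05). Hebp1, a haem-binding protein, rose by 0.53, Pxdc1 by 0.51, the lysosomal protease gene Ctsl by 0.34 and Rgs2, a brake on G protein signalling, by 0.27.

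Since the members of the chow mice were deeper, the genes were read again in cells of 3000 to 6000 UMIs and in cells thinned to 2000 UMIs. Of the 10 named falls, 7 were called in both fits (Ccr2, S100a6, S100a10, Alox5ap, Tmsb10, Lyz1 and Retnla), and Clec4b1 in neither. Of the 10 rises, 3 were called in both (Vcam1, H2-M2 and Clec4n) and 6 in neither (Apoe, Ctsl, Dnase1l3, Hebp1, Npl and Pxdc1). Dnase1l3 was at 0.20 (adjusted p = 0.253) and 0.29 (adjusted p = 0.0834), Npl at 0.30 (adjusted p = 0.854) and 0.70 (adjusted p = 0.0205), and Apoe at 0.20 (adjusted p = 0.0159) and 0.22 (adjusted p = 0.291). Clec12a was called in the window (-1.13, adjusted p = 0.00454) and not after thinning (-0.87, adjusted p = 0.377).

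**Figure D2:**
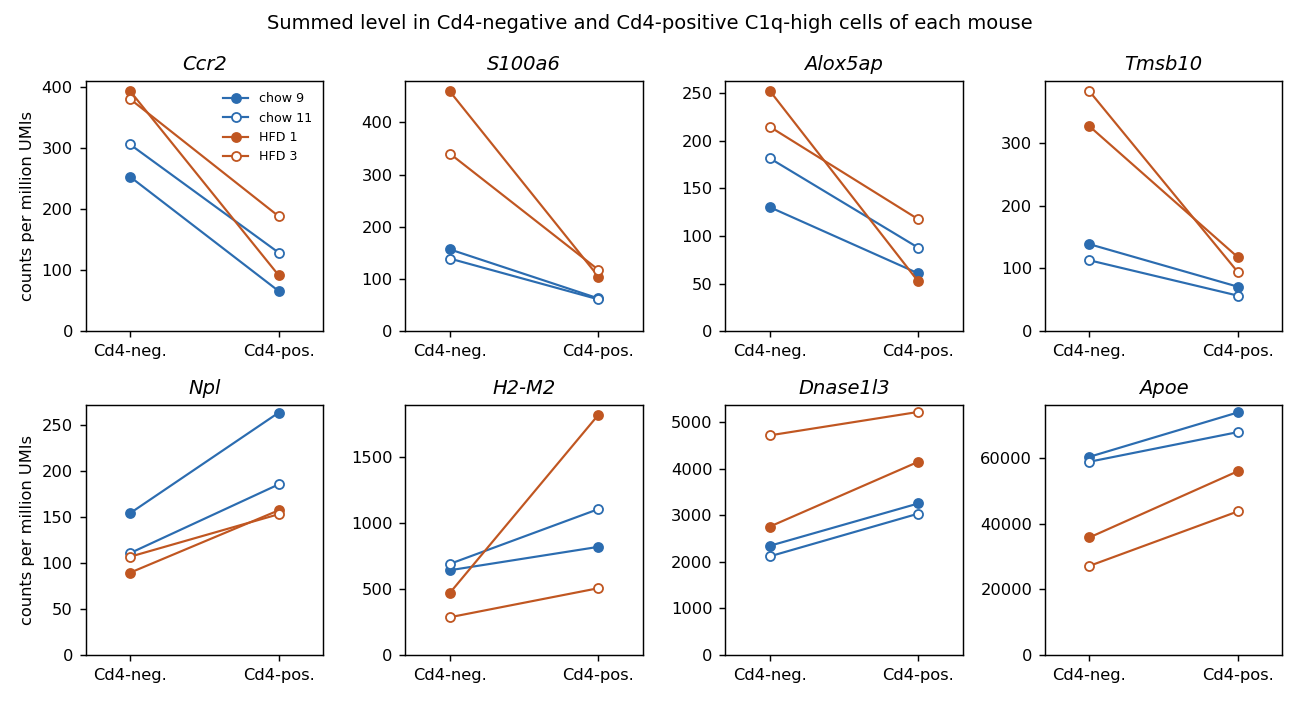
Level of 8 genes (y axes, CPM of the summed cells) in Cd4-negative and Cd4-positive C1q-high cells (x axis), with a line for each mouse; filled symbols are chow 9 and HFD 1, open symbols chow 11 and HFD 3. Ccr2, S100a6, Alox5ap and Tmsb10 go down and Npl, H2-M2, Dnase1l3 and Apoe go up from Cd4-negative to Cd4-positive cells in each of the 4 mice, H2-M2 and Dnase1l3 in HFD 3 through a single cell each.

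Genes that mark mature gut macrophages were mostly not called. Cx3cr1 differed by 0.19 (adjusted p = 0.276) and Adgre1 by -0.00053 (adjusted p = 0.998) on the log2 scale. H2-Ab1, a chain of MHC class II, the ligand of CD4, stood at 26493 against 28878 CPM in chow 9 and 27031 against 28000 in chow 11 (log2 -0.08, adjusted p = 0.516). Itgax, which encodes CD11c, differed by 0.20, the mannose receptor gene Mrc1 by 0.17, Csf1r by 0.16, the engulfment receptor gene Mertk by 0.12 and Il10 by -0.18, none of them past the limit. Ptgs1, the constitutive cyclooxygenase, lay just outside it at 0.38 (adjusted p = 0.0104).

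Timd4, which marks long-lived gut macrophages together with CD4, was sparse. It stood at 24.3, 23.4, 26.2 and 11.8 CPM in the members, from 24, 43, 2 and 1 UMIs, against 10.0, 13.2, 1.54 and 4.97 CPM in Cd4-negative cells, from 19, 59, 1 and 4 UMIs. A Timd4 UMI was held by 43 of 592 members (7.26%) and 51 of 1915 Cd4-negative cells (2.66%). The members were higher in 4 of 4 mice, by a mean of 14.0 CPM, with an exact sign-flip permutation p of 0.125, the smallest that 4 mice allow. At 2000 UMIs per cell the shares were 3.77% and 1.43% in chow 9, 5.24% and 2.00% in chow 11, 8.33% and 0.575% in HFD 1, and 6.67% and 0.485% in HFD 3, the member values of the HFD mice resting on 1 of 12 and 1 of 15 cells.

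Gene groups were read by their counts and by their median log2 fold change, beside a median of -0.0013 over all tested genes. Of 16 monocyte and immature macrophage genes tested, 3 fell (S100a6, S100a10 and Ccr2), 0 rose and 4 had a positive value, with a median of -0.31. Of 24 resident macrophage genes, Apoe rose, 0 fell and 19 were positive, with a median of 0.11. Vcam1 was the only one of 14 mucosal CD11c macrophage genes to rise, with a median of 0.15, and 0 of 13 genes of long-lived gut macrophages passed the test (8 positive, median 0.15). Lysosomal genes gave 1 rise, Ctsl, and 1 fall, the protease inhibitor gene Cst3, among 25 tested, of which 21 were positive (median 0.07).

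MHC class II presentation genes gave 0 calls among 16 tested, with 5 positive and a median of -0.04. The efferocytosis and lipid list, the genes for engulfing dead cells and handling their lipid, gave 0 calls among 20 (14 positive, median 0.07). Genes of CD4's signalling partners in lymphocytes and myeloid cells gave 0 calls among 11 (9 positive, median 0.16). Of 15 interferon-induced genes, Ifitm3 fell and 5 were positive (median -0.08), and of 19 cytokine and chemokine genes, Ccl9 fell and 9 were positive (median -0.03). Immediate-early and stress genes, which can rise during tissue digestion, gave 0 calls among 27, with 7 positive and a median of -0.10. The 10 mitochondrially encoded genes tested were all slightly positive (median 0.11) with 0 calls.

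The levels were also read by the number of Cd4 UMIs in a cell. Of the 20 named genes called on chow, 13 stepped in 1 direction from 0 through 1 to 2 or more Cd4 UMIs in both chow mice, and 7 did not (Clec12a, Clec4b1, Ctsl, H2-M2, Lyz1, Pxdc1 and Rgs2). Over all 5050 genes tested 6.99% did so; the named genes were chosen for their difference between 0 and at least 1 Cd4 UMI in these cells, so their order is a description. In chow 9, Ccr2 stood at 253 CPM in cells with 0 Cd4 UMIs, 79.0 with 1 and 49.7 with 2 or more, and in chow 11 at 306, 163 and 86.7 CPM. S100a6 stood at 157, 75.4 and 47.4 CPM in chow 9 and 139, 70.7 and 49.4 in chow 11. Dnase1l3 went the other way, at 2346, 2915 and 3678 CPM in chow 9 and 2119, 2606 and 3562 in chow 11. Vcam1 stood at 249, 327 and 382 CPM and at 218, 304 and 372 CPM. These 4 genes are among the 13, while H2-M2 was ordered in chow 11 (690, 957 and 1286 CPM) and not in chow 9 (642, 831 and 806). Lyz1 was lowest at 1 Cd4 UMI in both mice, at 167, 64.3 and 142 CPM and at 200, 71.7 and 112 CPM. The classes held 438, 106 and 77 cells in chow 9 and 1131, 221 and 152 in chow 11, and their median depth rose with the Cd4 UMI number, from 4069 through 5196 to 5426 UMIs in chow 9 and from 3795 through 4396 to 4874 in chow 11. Within the window of 3000 to 6000 UMIs per cell, 23 genes were called, 17 of them among the 27, with Ccr2, S100a6 and Vcam1 called there and Dnase1l3 not.

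**Figure D3:**
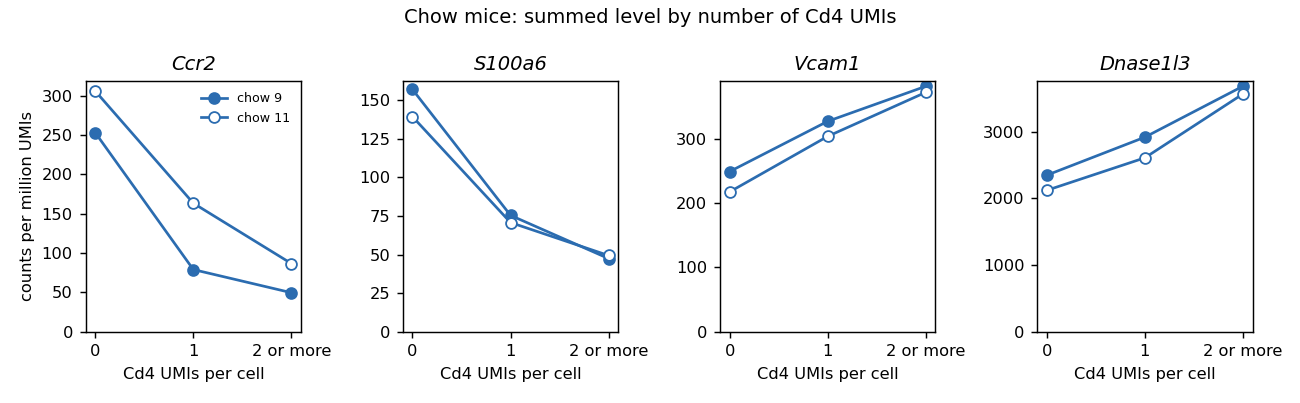
Level of Ccr2, S100a6, Vcam1 and Dnase1l3 (y axes, CPM of the summed cells) in C1q-high cells of the 2 chow mice with 0, 1 or at least 2 Cd4 UMIs (x axis), with a line per mouse. Ccr2 goes from 253 to 49.7 CPM in chow 9 and from 306 to 86.7 in chow 11, and Dnase1l3 rises in both.

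Promoter sequence is shown for 4 of the genes that moved with Cd4, since genes that move together within one cell type are often read for shared motifs. Each run is the 250 bases before the RefSeq start (GRCm38.p6), 5′ to 3′ on the gene's strand. Capitals mark a match to AGGAAG, the core bound by PU.1, to TGCTGA, a part of the site bound by MAF proteins, or to the interferon response element, written as GAAA, any 2 bases and GAAA, searched on both strands, so that CTTCCT and TCAGCA are matches on the opposite strand. Apoe has several RefSeq starts and the most upstream is shown. Apoe and H2-M2 were higher in members, S100a6 and Lyz1 lower.
Apoe, chr7:19699189-19699438, minus strand: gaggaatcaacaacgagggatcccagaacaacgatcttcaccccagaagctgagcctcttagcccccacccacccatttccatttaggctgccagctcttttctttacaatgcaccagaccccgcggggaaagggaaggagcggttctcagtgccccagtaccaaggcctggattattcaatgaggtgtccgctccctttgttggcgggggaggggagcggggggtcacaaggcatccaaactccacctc
H2-M2, chr17:37483555-37483804, minus strand: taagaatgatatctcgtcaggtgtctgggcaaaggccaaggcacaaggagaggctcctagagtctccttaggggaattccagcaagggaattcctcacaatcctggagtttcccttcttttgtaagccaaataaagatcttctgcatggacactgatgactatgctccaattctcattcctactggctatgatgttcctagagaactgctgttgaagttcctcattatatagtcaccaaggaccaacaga
S100a6, chr3:90612644-90612893, plus strand: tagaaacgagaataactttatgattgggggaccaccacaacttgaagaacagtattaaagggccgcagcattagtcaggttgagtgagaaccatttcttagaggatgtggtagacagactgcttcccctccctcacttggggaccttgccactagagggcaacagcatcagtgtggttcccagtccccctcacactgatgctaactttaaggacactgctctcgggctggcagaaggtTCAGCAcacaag
Lyz1, chr10:117292869-117293118, minus strand: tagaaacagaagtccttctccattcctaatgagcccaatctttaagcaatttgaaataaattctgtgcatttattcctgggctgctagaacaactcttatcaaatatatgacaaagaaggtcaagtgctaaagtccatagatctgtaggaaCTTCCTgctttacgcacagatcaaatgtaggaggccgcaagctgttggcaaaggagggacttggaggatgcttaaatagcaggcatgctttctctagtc
S100a6 holds TCAGCA from base -12 and Lyz1 holds CTTCCT from base -99, counted from the start, and the other 2 windows shown hold none of the 3 motifs. The counts that follow take a gene as matched when any of its RefSeq starts has a match, and Apoe has one for AGGAAG at another start than the one shown. RefSeq windows were found for 7 of the 10 genes that rose and 15 of the 17 that fell. AGGAAG occurred in 2 of 7 (28.6%) and 7 of 15 (46.7%), TGCTGA in 1 (14.3%) and 4 (26.7%), and the interferon response element in 0 and 1 (6.67%). Over the 4037 tested genes with a window the shares were 33.8%, 14.4% and 3.74%, and over all 27025 genes with a RefSeq window they were 32.3%, 18.0% and 3.46%. A match is only an occurrence of these letters.

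The direction of the chow differences was then read in the HFD mice, whose cells had no part in choosing the genes. Of the 10 genes that rose on chow, 7 were higher in members of HFD 1, the exceptions being Vcam1, Pxdc1 and Ctsl, and 10 were higher in HFD 3. Over all tested genes 40.6% and 42.2% were higher in members of these mice. Of the 17 that fell, 13 were lower in HFD 1, all but Lyz1, Clec4b1, Marcksl1 and Cst3, and 12 in HFD 3, all but S100a10, Clec12a, Emp3, Anxa2 and Cst3, against 59.4% and 57.7% of all tested genes. Both HFD mice had the chow direction for 7 of the 10 rises, against 18.3% of all tested genes, and for 9 of the 17 falls (52.9%), against 35.5%. With only 19 and 17 members in these mice, many genes had few UMIs. The shares over all tested genes were not matched to the level of the called genes, so they are only a rough background. Some rises there rested on a single member, the one with the most UMIs of the gene. Without it, members of HFD 3 had 161 CPM of H2-M2, 4419 of Dnase1l3, 126 of Hebp1 and 258 of Ctsl. Cd4-negative cells had 286, 4722, 166 and 317 CPM. In HFD 1, Clec4n then stood at 697 against 718 CPM and Rgs2 at 756 against 812.5. Of the rises shared by both HFD mice, only Npl and Apoe kept their direction in each when a cell was left out of the members alone. With the top cell of each class left out, Clec4n in HFD 1 stood at 697 against 637 CPM, still higher in members. Rgs2 there stood at 756 against 757 CPM. In HFD 3, H2-M2 (161 against 261 CPM), Dnase1l3 (4419 against 4584) and Hebp1 (126 against 158) stayed lower in members.

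When sums of at least 10 cells were allowed, all 4 mice entered the fit, and 16 of 5049 genes were called (0.317%), 5 higher and 11 lower. Of these, 15 were among the 27 called on chow. Ccr2 (log2 -1.47, SE 0.140, adjusted p = 1.06e-08), S100a6 (-1.33, adjusted p = 1.24e-07) and Tmsb10 (-1.10) were called in each of the 8 alternatives run for this fit. Apoe (0.49) and H2-M2 (0.88) were higher. Apoe was not called under DESeq2, with adjusted degrees of freedom or without either HFD mouse. H2-M2 was not called with adjusted degrees of freedom or without HFD 3. The added gene was Ccl5, a chemokine for T cells and monocytes, at 8.11 against 35.9 CPM in chow 9, 17.5 against 38.4 in chow 11, 78.6 against 233 in HFD 1 and 200 against 581 in HFD 3 (log2 -1.44, adjusted p = 2.42e-05). Its level was below that of the Cd4-negative class in every mouse, and it was not called without HFD 3.

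The diets were also compared within the members, to ask what changed in these cells on HFD. With 19 and 17 cells the HFD sums held only 76327 and 84964 UMIs, against 986954 and 1834249 on chow, below the minimum of 20 cells, so the fit used the minimum of 10 and was added after the counts of cells had been seen. On HFD, members had more of the interferon-induced genes Cxcl9, Gbp2 and Zbp1 and of Plac8 and Slamf8, and less of Mrc1, Dab2, Pf4 and Mmp12. The fit called 25 of 5406 genes (0.462%), 12 higher and 13 lower. The same fit in Cd4-negative cells, with 169 and 177 HFD cells, called 131 of 4930 genes (2.66%), 75 higher and 56 lower, and values of both classes are set side by side below. In simulated data, 4-fold changes were recovered for 23 of 66 genes in members and 55 of 66 in Cd4-negative cells. Counts of calls in the 2 classes are therefore not a measure of a difference between them. Without HFD 3, and likewise without the cells holding any T cell marker UMI, the fit in members called 0 genes, and edgeR with adjusted degrees of freedom also called 0 (508 genes had an unadjusted p under 0.05 in the fit given here).

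Cxcl9, a chemokine induced by interferon gamma, stood at 11.2 and 21.8 CPM in members of the chow mice and at 144 and 612 CPM in those of the HFD mice, a log2 fold change of 4.32 (SE 0.450, adjusted p = 5.37e-08). In Cd4-negative cells the change was 4.44. A single member held 6 of the 11 Cxcl9 UMIs of HFD 1, and without it the members there stood at 70.45 CPM. Plac8, abundant in Ly6C-positive monocytes, stood at 37.5, 80.7, 537 and 541 CPM, a rise of 3.01 (adjusted p = 1.11e-07) beside 3.60 in Cd4-negative cells. Gbp2, an interferon-induced GTPase, stood at 24.3, 26.2, 105 and 306 CPM, a rise of 2.90 beside 3.52. Slamf8, a receptor of the SLAM family, stood at 93.2, 123, 419 and 388 CPM, a rise of 1.77 beside 1.27. The diets did not overlap for any of these 4 genes, as was so for 2352 of the 5406 genes tested (43.5%). Ccl8 rose by 3.82, from 150 and 106 CPM to 157 and 3790, and in HFD 3 a single cell held 166 of its 322 UMIs (51.6%). Ly6a stood at 3.04, 38.7, 52.4 and 624 CPM, a rise of 3.73, and Clec12a at 20.3, 26.2, 39.3 and 259 CPM, a rise of 2.56, with its 3 UMIs of HFD 1 in 1 cell. Both values rest on HFD 3, without which they were 1.11 and 0.66 and no longer called, and Ccl8 likewise 0.23. Zbp1, a sensor of Z-form nucleic acid, rose by 2.67, and the proteasome activator gene Psme2 by 1.49. The alternatives of this fit, among them the fit without cells holding a T cell marker UMI, lost calls with smaller shifts in some fold changes. Over all of them Cxcl9 was at 2.98 to 5.01, Plac8 at 2.61 to 3.72, Gbp2 at 1.97 to 3.47 and Slamf8 at 1.49 to 1.99.

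Among the falls, Mrc1, the mannose receptor, stood at 308 and 353 CPM on chow and 78.6 and 82.4 on HFD (log2 -2.16, adjusted p = 0.00114), beside -1.29 in Cd4-negative cells. Dab2, an endocytic adaptor, stood at 481, 602, 144 and 165 CPM, a log2 fold change of -1.93. Pf4, the chemokine platelet factor 4, stood at 2416, 2081, 943 and 895 CPM (log2 -1.41, adjusted p = 0.000443), beside -1.68. All 3 stand on the list of long-lived gut macrophage genes. Mmp12, the macrophage elastase, stood at 581, 288, 39.3 and 106 CPM in the members (log2 -2.66, adjusted p = 0.000416), and at 567, 240, 136 and 542 CPM in Cd4-negative cells, where the change was -0.33. Other falls, as log2 fold changes, were those of Gdf15 (-2.98), Emp1 (-2.78), Jchain (-2.75), Ccl9 (-2.35), Ecm1 (-1.71) and Jun (-1.69). Several falls rest on few UMIs in the members of HFD 1 and HFD 3. These were 4 and 1 for Gdf15, 3 and 1 for Emp1, 2 and 2 for Jchain, 3 and 5 for Ccl9, and 6 and 7 for Mrc1. Jchain belongs to plasma cells, and the summed B and plasma cell genes stood at 529, 684, 419 and 341 CPM in members and 627, 778, 472 and 381 CPM in Cd4-negative cells, lower on HFD in both classes.

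**Figure D4:**
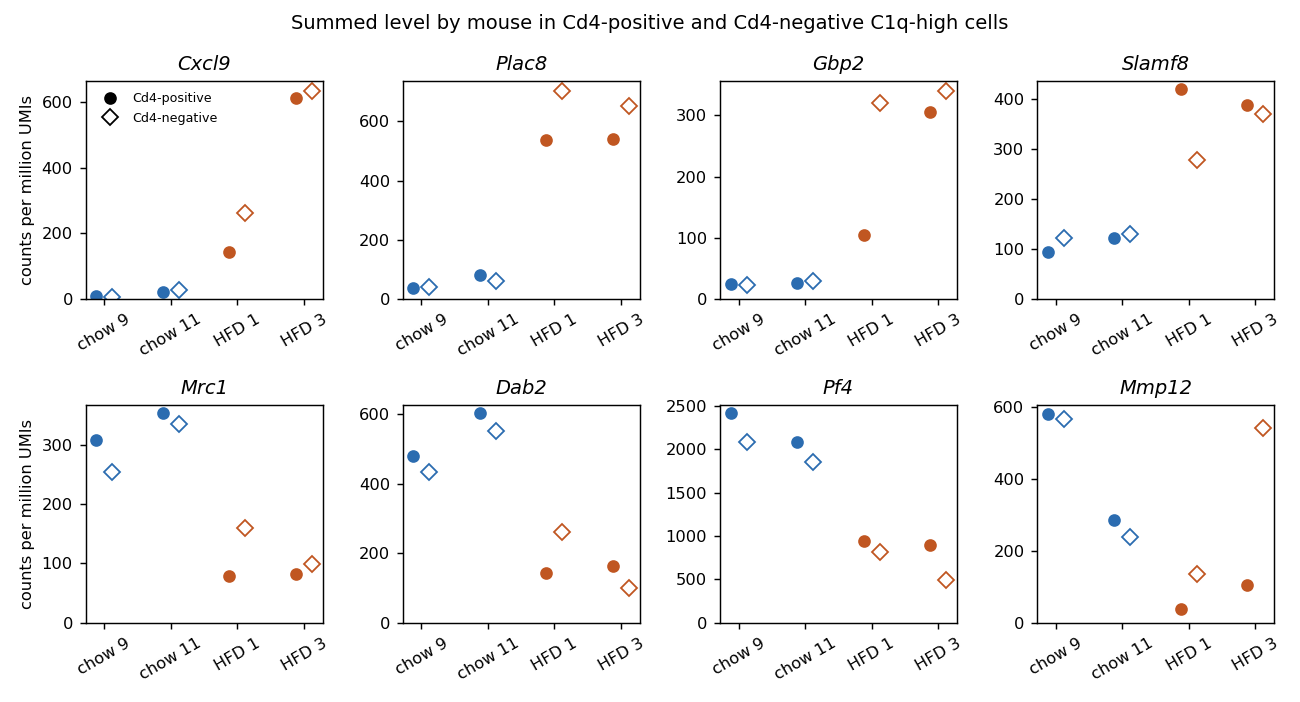
Level of 8 genes (y axes, CPM of the summed cells) in chow and HFD mice (x axis); circles are Cd4-positive and diamonds Cd4-negative C1q-high cells, 1 symbol per mouse and class. Cxcl9, Plac8, Gbp2 and Slamf8 are higher and Mrc1, Dab2, Pf4 and Mmp12 lower on HFD in Cd4-positive cells, while Mmp12 in Cd4-negative cells of HFD 3 stays at 542 CPM.

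By gene group, 2 of 18 interferon-induced genes rose in the members on HFD and 15 were positive, with a median of 1.23 against -0.17 over all tested genes. In Cd4-negative cells 11 of 17 rose, 16 were positive and the median was 1.3 against -0.01. Of 14 long-lived macrophage genes, Dab2, Mrc1 and Pf4 fell and Ccl8 rose in the members (median -0.85), and of 13 in Cd4-negative cells 5 fell and 1 rose (median -0.89). Of 15 monocyte genes, Plac8 and Ly6a rose (median 0.37), beside 6 of 18 in Cd4-negative cells (median 0.91). The 24 resident macrophage genes gave 0 calls with 5 positive (median -0.41), while in Cd4-negative cells 6 of 24 fell, among them Apoe, Adgre1, Cx3cr1 and Maf (median -0.61). The 16 MHC class II genes gave 0 calls with 10 positive (median 0.05), beside 1 rise and 1 fall in Cd4-negative cells (median -0.12). Of 27 immediate-early genes, Dusp1 and Jun fell and 1 was positive (median -0.54), beside 6 falls and 1 rise among 27 in Cd4-negative cells (median -0.56).

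Cx3cr1, Adgre1, Apoe and Ccr2 were not called between diets in the members, while the first 3 were called lower on HFD in Cd4-negative cells. The fit in members recovers fewer changes, so a call in Cd4-negative cells only is not by itself a difference between the classes. Cx3cr1 differed by -0.38 (adjusted p = 0.719) in members and by -0.92 (adjusted p = 0.00982) in Cd4-negative cells. Adgre1 differed by -0.55 (adjusted p = 0.547) and -1.01 (adjusted p = 0.00485), and Apoe by -0.63 (adjusted p = 0.101) and -1.01 (adjusted p = 0.000826). Ccr2 differed by 0.39 (adjusted p = 0.846) and 0.38 (adjusted p = 0.236).

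Whether the diet difference itself was unequal in the 2 classes was tested by the class-by-diet term, with the same minimum of 10 cells. It called 7 of 5049 genes (0.139%), 5 with a higher and 2 with a lower value in members, and 411 had an unadjusted p under 0.05. Mmp12 was the largest, at -2.36 (adjusted p = 7.96e-05), and Apoe was at 0.44 (adjusted p = 0.00400), while Cx3cr1, Adgre1 and Ccr2 were not called. DESeq2, edgeR with adjusted degrees of freedom, and the fits without either chow mouse each called 0 genes.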

How the data were processed

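The study sequenced lamina propria cells of each mouse with 10x Chromium 3' chemistry. Per the submitters' processing notes, kallisto 0.46.0 and bustools 0.39.2 were used with mm10. The authors removed cells by library size, features and mitochondrial share, and cells other than monocytes and macrophages, and deposited a matrix of raw UMI counts of 11820 genes in 5420 cells. Cells were assigned to mice by the suffix of their column names. The members and gene lists were chosen with earlier results of these data known.

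Counts were summed per mouse and class (at least 20 cells) and tested with edgeR 4.0.16 (R 4.3.3, quasi-likelihood test, TMM, mouse as a term within mice), Benjamini-Hochberg adjusted over all genes tested, at a false discovery rate of 1%. Low genes were left out (CPM of 1 or less in all but 1 of the sums, or detected in under 5% of cells). Both classes come from the same animals, and the difference between the chow mice correlated over 5054 genes between the classes (r = 0.50). CPM are UMIs per 1000000 of the summed cells, and log2 fold changes are fitted values. Shares were compared by exact permutation over mice. Doublets were marked with Scrublet (scanpy 1.11.5), 41 cells in all, and kept, and 46 cells share a barcode with another library. Named genes were the genes of the rule, 10 preset macrophage genes, the 10 largest rises and falls of each comparison with 1 sign in every mouse, and called members of the lists. The fits were tested on simulated data with known changes. The diet fit in members recovered 0 of 67 genes changed 1.5-fold, 5 of 67 changed 2-fold and 23 of 66 changed 4-fold. The diet fit in Cd4-negative cells recovered 0, 17 and 55 of these numbers. The class-by-diet fit recovered 1, 6 and 21, and the chow fit between classes 15, 40 and 66. Alternatives were DESeq2 1.42.0, other edgeR tests and scaling, filters, cell limits, thinning and leaving out each mouse.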

Additional observations from a re-analysis of the deposited data

Results flagged for a closer look

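The 7 genes whose diet difference in Cd4-positive cells was unequal to that in Cd4-negative C1q-high cells of the same mice, by the class-by-diet term of edgeR with sums of at least 10 cells, are given as values. Mmp12, the macrophage elastase, was at -2.36 (adjusted p = 7.96e-05), with 3 and 9 UMIs in the members of HFD 1 and HFD 3, while a single Cd4-negative cell of HFD 3 held 153 of 436 Mmp12 UMIs (35.1%), and the Cd4-negative level there was 542 CPM with it and 355 CPM without it. Clec7a, which encodes the beta-glucan receptor dectin-1, was at -0.94 (adjusted p = 0.00427). Ccl4, a chemokine, was at 0.68 (adjusted p = 0.00105), Ms4a7 at 0.67 (adjusted p = 0.00400) and Apoe at 0.44 (adjusted p = 0.00400). H2-M2 was at 1.03 (adjusted p = 0.00283), and a single cell held 47 of its 139 UMIs in HFD 1 (33.8%) and another 31 of its 43 UMIs in HFD 3 (72.1%). Lmna, which encodes lamin A, was at 1.09 (adjusted p = 0.00283), with 40.0% of its UMIs in HFD 3 in a single member. These values rest on 19 and 17 members in the HFD mice, and the part of single cells in them was not tested.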

How the results depend on the processing

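The lower shares of members on HFD kept their direction in every alternative, with differences of -20.0 to -7.33 percentage points of Lyve1-low C1q-high cells and -18.7 to -7.43 of all cells. Of the 20 named genes called on chow, 202 of 298 values under the alternatives that change that fit stayed past the limit, and 1 reversed, Pxdc1 at -0.019 after thinning. Against 27 genes on chow, DESeq2 called 10, no filter on low counts 55, a false discovery rate of 5% 50, the minimum of 10 cells 16, thinning 15, leaving out cells with a T cell marker UMI 42, at least 2 Cd4 UMIs 57, RLE size factors 55 and C of at least 80 (where a 3rd mouse enters) 7. Alternatives chosen after seeing the data called 14 without cells holding a Ccr2 UMI and 6 without marked doublets.

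The classes of a mouse are paired by animal, and the fit without the mouse block called 0 genes. No paired analysis was possible between diets because chow and HFD mice share no replicate numbers. Leaving out a chow mouse from the chow fit leaves no residual degrees of freedom, and the contrast among Lyve1 or Cd163 positive cells could not be fitted.

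With all 4 mice, against 16 genes, DESeq2 called 8, the likelihood-ratio test 36, adjusted degrees of freedom 5, no filter 29, and leaving out 1 mouse 7 to 13 (7 without chow 11). For HFD against chow in members, against 25 genes, DESeq2 called 13, adjusted degrees of freedom 0, no filter 50, a false discovery rate of 5% 38, thinning 6, leaving out cells with a T cell marker UMI 0, and leaving out 1 mouse 0 to 13 (6 without chow 9, 13 without chow 11, 11 without HFD 1 and 0 without HFD 3). For the class-by-diet term, against 7 genes, DESeq2 called 0, the likelihood-ratio test 12, adjusted degrees of freedom 0, and leaving out 1 mouse 0 to 27 (0 without chow 9 and without chow 11, 27 without HFD 1, 14 without HFD 3). The fitted Cd4 difference in all Lyve1-low C1q-high cells, a description, ranged from -1.74 to -1.44 without 1 mouse. The cause of these shifts was not tested. The small HFD sums of members limit the diet and class-by-diet fits in members.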

Other observations

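Several abundant macrophage transcripts were not called between Cd4-positive and Cd4-negative C1q-high cells. Il1b, the gene of the inflammatory cytokine interleukin-1 beta, stood at 10433 against 10418 CPM in chow 9 and 11565 against 11058 in chow 11 (log2 0.05, SE 0.0374, adjusted p = 0.809 by edgeR). Cxcl2, a neutrophil chemokine, stood at 9645 against 9373 CPM and 8519 against 8359, and Ccl3 at 3331 against 3572 and 3944 against 3512. Neither was called. Lgmn, a lysosomal endopeptidase, stood at 3712 against 3568 CPM and 3143 against 2893, and Npc2, which moves cholesterol out of lysosomes, at 1993 against 1915 and 2234 against 2142. Cd74, the invariant chain of MHC class II, stood at 26027 against 28461 CPM in chow 9 and 25318 against 26193 in chow 11, and H2-Aa at 25764 against 26269 and 27154 against 26348. The collagenase gene Mmp13 (log2 0.26, adjusted p = 0.0398) and Pf4 (log2 0.20, adjusted p = 0.0451) were higher in the members of both chow mice without passing the 1% limit, Mmp13 at 869 against 775 CPM and 859 against 690, and Pf4 at 2416 against 2083 and 2081 against 1855.

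Markers of the other cell types that a lamina propria sort can hold were read in both classes. Dendritic cell genes had a UMI in 14.7% of members and 16.3% of Cd4-negative cells, and their summed level in members was 47.6, 48.5, 65.5 and 70.6 CPM, against 51.2, 59.8, 134 and 140 CPM in Cd4-negative cells, higher on HFD in both classes and lower in members of every mouse. Their part in the diet differences was not tested. Epithelial genes had a UMI in 5.74% of either class, with Epcam, Cdh1 and Fabp2 at 0 in members. The 3 measured neutrophil genes had a UMI in 6.25% of members and 7.99% of Cd4-negative cells. Kit, the single measured gene of the mast cell list, was at 0 in members.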
